A study of Mus musculus with 12 samples.

Results

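Hearts of Slit2-Tg mice were compared with hearts of C57BL/6J mice after ischemia and reperfusion (IR) in 6 of the 12 libraries of the series, 3 Slit2-IR and 3 C57-IR. Members were taken by their labels: the titles SI1 to SI3 mark Slit2-IR and CI1 to CI3 mark C57-IR, the genotype is given by the labels, and IR was read from the title letters against the groups of the study's methods. Slit2-Tg mice carry a full-length human SLIT2 cDNA behind the CMV promoter, which is not restricted to a cell type. The line was made in oocytes of C57 × CBA F1 mice, carriers were screened as heterozygotes, and the labels give C57BL/6J as the strain of both genotypes. Hearts were those of adult male mice, taken out and perfused, and an IR heart had no coronary flow for a time before flow returned. The other 6 libraries, 3 Slit2-non-IR and 3 C57-non-IR, came from hearts of the same genotypes perfused throughout without ischemia, and they are used here to show the same genotype difference without IR.

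Slit2 is a secreted matrix-bound ligand known from axon guidance, where it repels growing axons through the ROBO receptors. ROBO1 and ROBO2 pass the signal to srGAP proteins, which act on small GTPases of the cytoskeleton, and ROBO4 is the endothelial member of the family. In vessels and leukocytes the pathway is known for limiting leakiness and chemotaxis. After IR the heart releases danger signals such as HMGB1, and resident macrophages, endothelium and fibroblasts respond with chemokines and interferon-induced proteins.

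Expression was measured by paired-end RNA sequencing of whole heart tissue and is given in FPKM, fragments scaled to the length of the gene and the size of the library. Between 18771644 and 24841291 reads lay on genes in the 6 libraries. Hearts within a group varied beyond counting error (chi-square per gene 23.1 to 52.3). The tests covered 15240 genes on the log2(FPKM + 1) scale with limma in a fit of all 12 libraries, where the added 1 pulls the log2 fold change of weakly expressed genes toward 0. A gene is said to have risen or fallen where its Benjamini-Hochberg adjusted p was under 0.05. Values of other genes are given with the unadjusted p of the same limma test.

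Some libraries stood apart from the others of their group. Slit2-IR replicate 1 held 1770 FPKM of 8 atrial markers, against 75.9 to 253 FPKM in the other IR libraries, and Myl7, the atrial myosin light chain, alone reached 1049 FPKM in it. The same library had the most skeletal muscle markers (21.6 FPKM against 4.44 to 9) and pacemaker markers (13.5 against 5.66 to 6.04). Of those lists, Myh4 and Isl1 were at 0 in all 12 libraries of the series. Ventricular cardiomyocyte markers, which check the tissue, summed to 15759 to 19665 FPKM in all 6 libraries. Macrophage markers were at 226, 462 and 508 FPKM in C57-IR and at 252, 355 and 384 FPKM in Slit2-IR libraries. Adipocyte markers were at 14.6 and 17.4 FPKM in C57-IR replicates 2 and 3, at 10.6 FPKM in Slit2-IR replicate 1 and at 0.139 to 1.81 FPKM in the others. T and NK cell markers and B cell markers summed to 0.172 to 0.871 FPKM.

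**Figure D1:**
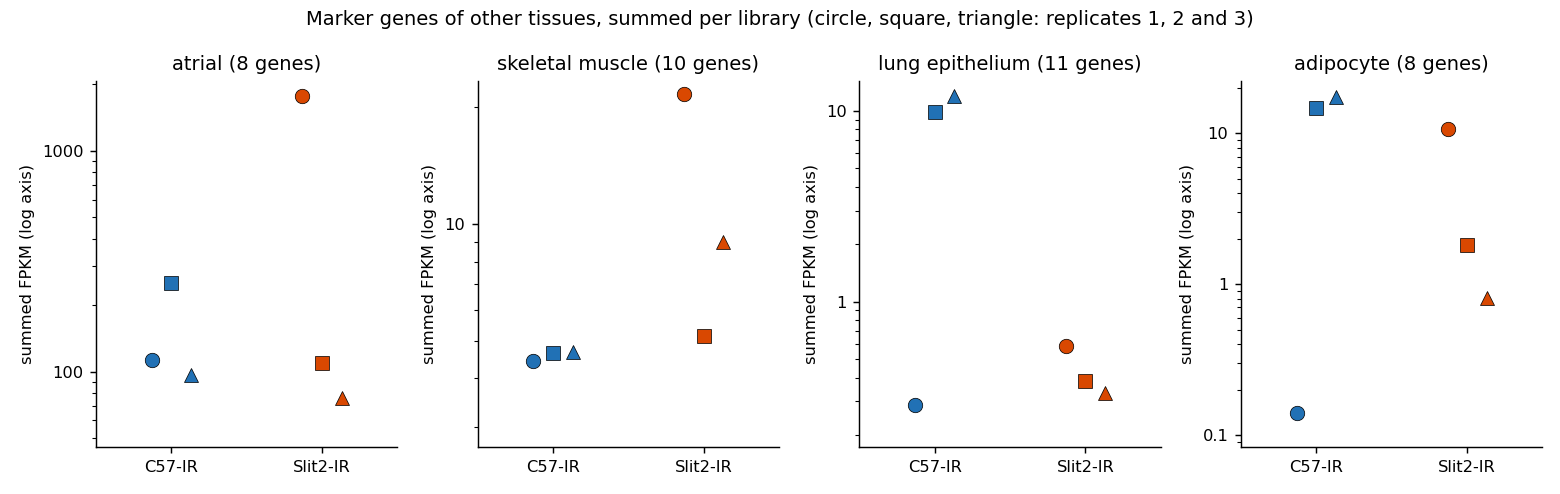
Summed FPKM (log axis, a separate range for each panel) of markers of 4 other tissues in the C57-IR and Slit2-IR libraries. Symbols mark the replicate number. Slit2-IR replicate 1 stands at 1770 FPKM of atrial markers, and lung markers reach 9.88 and 11.9 FPKM in C57-IR replicates 2 and 3.

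The level of mouse Slit2 (chromosome 5 from 47983138 to 48307733) does not check the genotype, since the transgene is a human cDNA and the table holds mouse genes. It was at 0.282, 0.235 and 0.213 FPKM in C57-IR and at 0.153, 0.813 and 0.0847 FPKM in Slit2-IR libraries, so that 1 Slit2-IR library was the highest and the other 2 the lowest of the 6. Slit3 was at 2.87 to 3.96 FPKM in C57-IR and 2.8 to 6.19 FPKM in Slit2-IR libraries. Of the ROBO receptors, Robo4, the endothelial one, was the most abundant at 7.2 to 12.3 and 8.3 to 13.1 FPKM. Robo1 was at 0.355 to 0.512 and 0.357 to 0.567 FPKM. The groups overlapped for Robo4 and for Robo1, which the study also measured by RT-qPCR. Robo2 lay at 0.0404 to 0.0829 and 0.0981 to 0.174 FPKM, without overlap, at an unadjusted limma p of 0.112. Among 13 co-receptors and effectors, Srgap3, an srGAP that acts on Rac, was higher at 0.143 to 0.225 against 0.0587 to 0.113 FPKM (unadjusted p = 0.0151, adjusted p = 1), and the other 12 had unadjusted p-values over 0.05. Of all genes tested, 1.78% were higher at an unadjusted p under 0.05.

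In Slit2-IR hearts 5 genes rose and 2 fell against C57-IR hearts, 0.0459% of the genes tested. Slc7a1, the cationic amino acid transporter that brings arginine into cells, and Hmgb1, a chromatin protein that acts as a danger signal outside the cell, fell. Vwc2, a secreted von Willebrand factor C domain protein of the BMP pathway, rose from a low level. The other 4 genes that rose were Pcna-ps2, Rpl3-ps1, AC154767.3 and Gm3650, which carry pseudogene names or biotypes. Before adjustment, 272 genes (1.78%) stood higher and 210 (1.38%) lower at p under 0.05, together 482, fewer than the 762 that make up 5% of the genes tested. The groups did not overlap for 462 genes that were higher (3.03%) and 524 that were lower (3.44%) in Slit2-IR hearts.

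Slc7a1 (ENSMUSG00000041313, chromosome 5 from 148327410 to 148399904, GRCm38) was at 5.87, 5.26 and 3.91 FPKM in the C57-IR libraries and at 1.25, 1.15 and 1.32 FPKM in the Slit2-IR libraries. Every Slit2-IR library lay below every C57-IR library. The ratio of the group means was 0.247, or -1.41 ± 0.13 on the log2 scale (SE, n = 3 hearts a group, limma adjusted p = 0.0037). Without IR the same transporter was at 4.69, 4.17 and 3.74 FPKM in C57-non-IR and at 2.57, 2.61 and 2.15 FPKM in Slit2-non-IR libraries. Its levels there were also apart by genotype, with a log2 fold change of -0.59 (limma unadjusted p = 6.84e-04). The difference was larger after IR by -0.82 on the log2 scale, with an unadjusted p of 8.10e-04 and an adjusted p of 1 for the interaction in limma's test.

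Hmgb1 (ENSMUSG00000066551, chromosome 5 from 149046702 to 149184489) was at 7.88, 8.14 and 8.07 FPKM in C57-IR and at 3.9, 4.37 and 3.39 FPKM in Slit2-IR libraries. The C57-IR libraries were close together and all stood above the Slit2-IR libraries, at a ratio of means of 0.484. Slit2-non-IR libraries held 5.29, 5.53 and 5.69 FPKM, between the Slit2-IR libraries and the 7.15 to 7.96 FPKM of C57-non-IR libraries. The interaction was -0.49 on the log2 scale (limma unadjusted p = 0.00274, adjusted p = 1). Slc7a1 and Hmgb1 are 647 kb apart on chromosome 5. The 5 genes tested between them, which include Ubl3 and Katnal1, had log2 fold changes from -0.12 to 0.00 with a smallest unadjusted limma p of 0.387. Of the other HMGB genes tested, Hmgb2 (3.09 to 8.12 FPKM in C57-IR, 4.68 to 7.76 in Slit2-IR) and Hmgb3 (16.8 to 21.3 and 20.5 to 21.6) overlapped between the groups. Ager, which encodes the HMGB1 receptor RAGE, was at 0.187, 0.355 and 0.436 FPKM in C57-IR and at 0.046, 0.116 and 0.0838 FPKM in Slit2-IR libraries (limma unadjusted p = 0.0022, adjusted p = 0.819). These levels rest on 43 and 12 reads in all. Ager is also a marker of lung epithelium, and the summed markers of that tissue were at 9.88 and 11.9 FPKM in C57-IR replicates 2 and 3 and at 0.289 to 0.589 FPKM in the other 4 libraries. Their part in the Ager difference was not tested.

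Vwc2 (ENSMUSG00000050830, chromosome 11 from 11114223 to 11268931) was at 0.142, 0.109 and 0.0589 FPKM in C57-IR and at 0.53, 0.612 and 0.676 FPKM in Slit2-IR libraries. Slit2-IR libraries were all higher, with a ratio of means of 5.86 on 36 reads in C57-IR and 245 reads in Slit2-IR hearts and a limma adjusted p of 0.0173. Without IR the levels were 0.068 to 0.163 FPKM in C57BL/6J and 0.822 to 1.11 FPKM in Slit2-Tg libraries. For Vwc2 the difference after IR was the smaller of both, with an interaction of -0.23 (limma unadjusted p = 0.0338, adjusted p = 1).

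Pcna-ps2 (ENSMUSG00000067608, chromosome 19 from 9283238 to 9284494), named as a pseudogene of the replication clamp gene Pcna and annotated as protein coding, was at 0.228, 0.403 and 0.283 FPKM in C57-IR and at 4.51, 4.92 and 6.53 FPKM in Slit2-IR libraries. Its ratio of means was 17.5 (log2 fold change 2.27, limma adjusted p = 0.00388). Rpl3-ps1 (ENSMUSG00000084349), which is on chromosome X between 13202571 and 13203780 and is a processed copy of the ribosomal protein gene Rpl3, was at 12.5, 12.7 and 12.3 FPKM in C57-IR and at 49.2, 38.3 and 58.3 FPKM in Slit2-IR libraries. The C57-IR libraries lay close together, and the ratio of means was 3.89 (limma adjusted p = 0.0103). AC154767.3 (ENSMUSG00000114547, chromosome 13 from 112593743 to 112595084), a processed pseudogene, was at 0.0854, 0.113 and 0.166 FPKM in C57-IR and at 3.52, 1.58 and 2.27 FPKM in Slit2-IR libraries (limma adjusted p = 0.0044). Its interaction was 0.68 on the log2 scale, larger after IR (limma unadjusted p = 0.0149, adjusted p = 1). Gm3650 (ENSMUSG00000097891, chromosome 18 from 43472816 to 43475169), an unprocessed pseudogene, had 1 read in all in C57-IR and 303 reads in Slit2-IR hearts, at 4.81, 4.95 and 8.47 FPKM (limma adjusted p = 0.0175). Genes like these share sequence with a parent or sister gene, so that reads can move between them. Whether reads moved here was not tested. Under 13 alternative fits Pcna-ps2 kept an adjusted p under 0.05 in the 12 that tested it, while Slc7a1 (0.0669), Hmgb1 (0.15) and AC154767.3 (0.15) lost it when only the 6 IR libraries were fitted. Rpl3-ps1 lost it without C57-IR replicate 1, 2 or 3 or Slit2-IR replicate 1, and Vwc2 and Gm3650 kept it in 4 and 5 of the 12 fits that tested them.

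**Figure D2:**
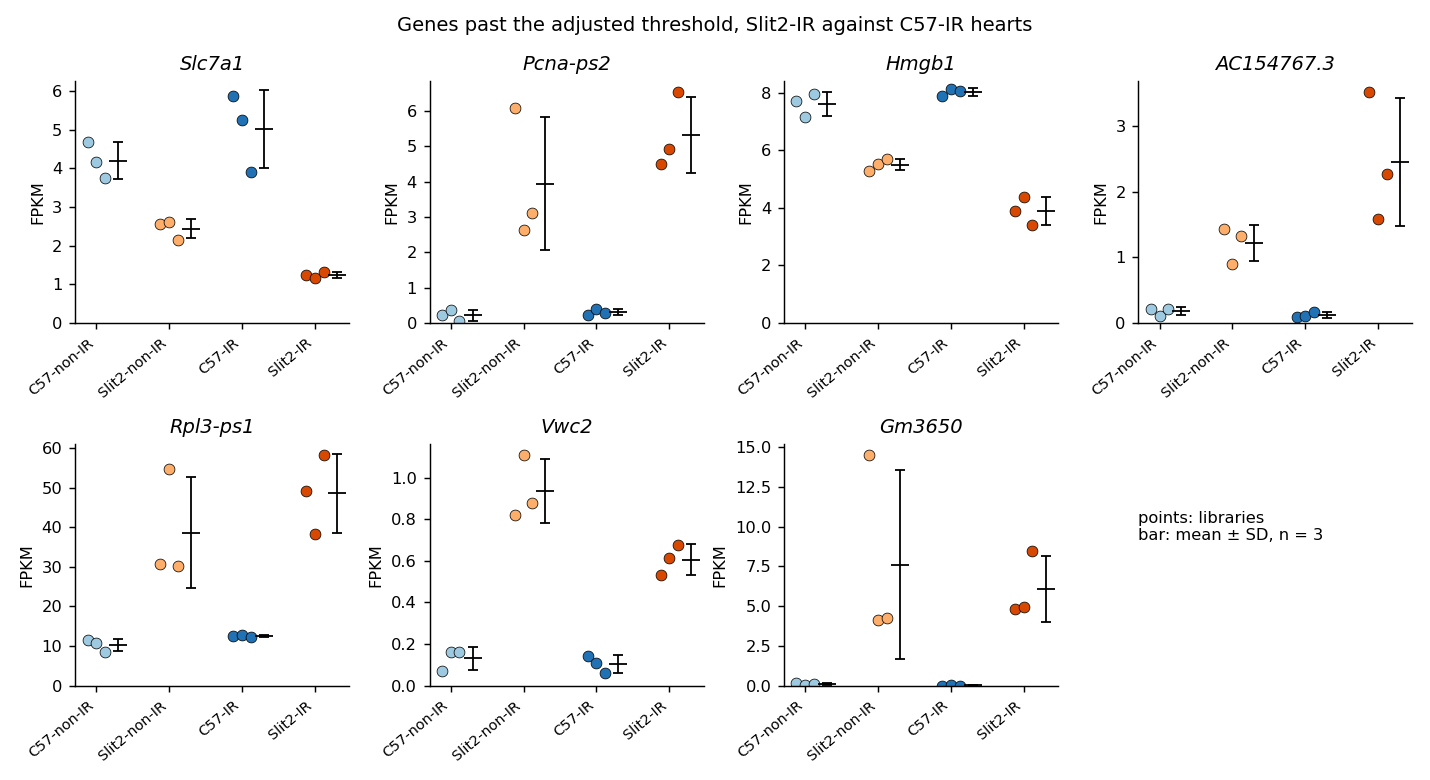
FPKM (linear axis from 0) of the 7 genes past the adjusted threshold in the 4 groups. Points are libraries in the order of their replicate numbers, and the bar is the mean ± SD (n = 3). In every panel the Slit2-Tg libraries of a condition lie on 1 side of the C57BL/6J libraries, with Slc7a1 at 1.15 to 1.32 in Slit2-IR and 3.91 to 5.87 in C57-IR hearts.

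The 7 genes differed by genotype in the same direction without IR, in libraries that enter no mean of the IR comparison, and Pcna-ps2, Rpl3-ps1, Vwc2 and Gm3650 passed the adjusted threshold there too. Among the 30 genes with an unadjusted p under 0.001 after IR, 29 had the same sign without IR. Of the 22 that were higher, 18 (81.8%) were also higher without overlap in the non-IR libraries, where this held for 4.63% of all genes tested. Of the 8 that were lower, 7 (87.5%) were lower without overlap there, against 4.57% of all genes. Of the 272 and 210 genes at an unadjusted p under 0.05, 65 (23.9%) and 55 (26.2%) were apart in the same direction without IR, which is 9.22% and 7.89% of the genes apart that way there. The interaction passed an adjusted p of 0.05 in limma for 0 genes and an unadjusted p of 0.05 for 284.

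**Figure D3:**
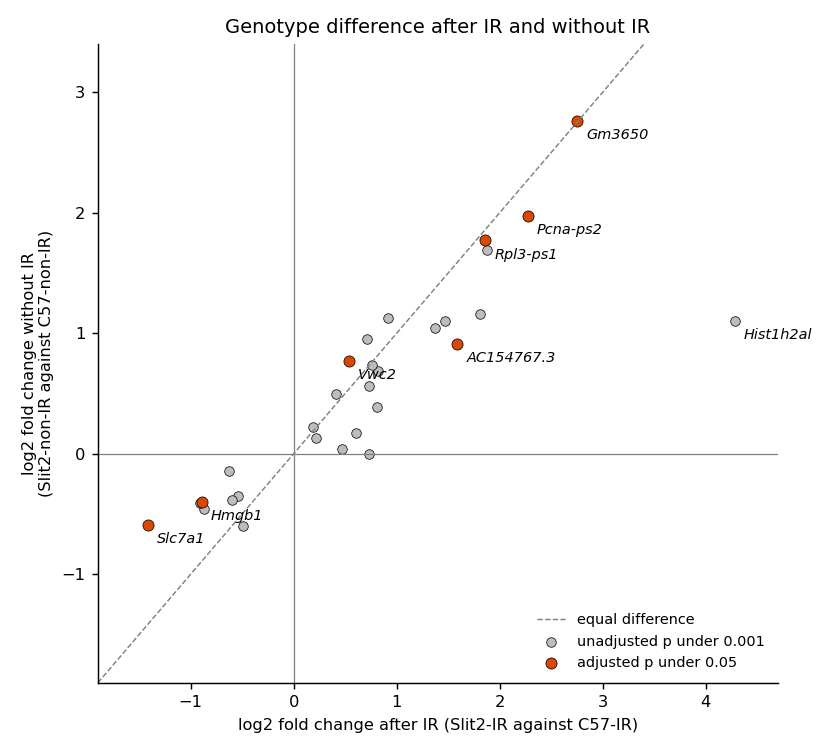
Log2 fold change of Slit2-Tg against C57BL/6J hearts after IR (x axis) and without IR (y axis) for the 30 genes with an unadjusted p under 0.001 after IR. Orange points are the 7 genes past the adjusted threshold, and the dashed line marks equal differences. Gm3650 lies on the line at 2.75 and 2.76, while Slc7a1 lies at -1.41 after IR and -0.59 without it.

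Of the 30 genes, 9 (30%) carry a pseudogene biotype, against 707 (4.64%) of the genes tested. Several sit beside each other or beside a copy. Eif3j2 (chromosome 18 from 43475418 to 43477796), a copy of the gene for a translation initiation factor subunit that lies next to Gm3650, was at 0.819, 1.17 and 1.2 FPKM in C57-IR and at 5.9, 5.27 and 8.9 FPKM in Slit2-IR libraries (limma unadjusted p = 9.01e-05, adjusted p = 0.106). Its sister gene Eif3j1 on chromosome 2 was lower, at 10.9 to 11.2 FPKM in C57-IR and 6.29 to 10.2 FPKM in Slit2-IR libraries (unadjusted p = 0.0276). Eif3j2 took 2.89% to 4.26% of the reads of the pair in C57-IR and 19.2% to 36.6% in Slit2-IR hearts. The reads of the pair together came to 1412 ± 12.5 and 1372 ± 165 at the depth of the median library (SD, n = 3). Rpl3 stood at 52.9, 62.4 and 56.9 FPKM in C57-IR and at 38.8, 43.0 and 28.5 FPKM in Slit2-IR libraries, the reverse order of Rpl3-ps1. Rpl3-ps1 took 7.32% to 8.4% of the reads of that pair in C57-IR and 25.7% to 44.2% in Slit2-IR hearts, and the sum was 4107 ± 318 and 3670 ± 258 reads. For Hmgb1 and its copy Hmgb1-ps2 on chromosome X the sum was lower in Slit2-IR hearts, at 628 ± 206 against 939.8 ± 34.4 reads, with a share of the copy of 19.2% to 51.3% and 5.69% to 14.3%. Pcna (17.8 to 33.5 and 16.1 to 26.0 FPKM) overlapped between the groups. The sum for Pcna with Pcna-ps2 was 1250 ± 414 reads in C57-IR and 1192 ± 237 reads in Slit2-IR hearts. It was 727 ± 78.3 and 613 ± 205 reads for Mfap1a with Mfap1b, and 1670 ± 66.7 and 1227 ± 321 reads for Cd59a with Cd59b. These pairs were chosen after their values were seen, and the part of shared reads in the differences was not tested.

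Among the 12 largest differences in each direction, chosen by fold from genes at an unadjusted p under 0.05 with groups apart, 8 genes that were higher and 10 that were lower did not pass the adjusted threshold. Bex1, a small brain-expressed protein of the X chromosome, was at 0.386, 0.897 and 0.638 FPKM in C57-IR and at 7.31, 2.94 and 4.65 FPKM in Slit2-IR libraries (limma unadjusted p = 5.22e-05, adjusted p = 0.0864). C1qtnf6, a secreted C1q and TNF related protein, was at 3.08, 2.55 and 3.28 FPKM and at 8.67, 7.26 and 15.6 FPKM (adjusted p = 0.133). Hist1h2al, annotated as a processed pseudogene, had 3 reads in all C57-IR libraries and was at 18.3, 22.7 and 23.2 FPKM in Slit2-IR libraries, while it was at 8.82 FPKM in Slit2-non-IR replicate 1 and at 0 in the other 5 non-IR libraries. Gm3375, Gm9790, Gm13534 and AC156560.1 are processed pseudogenes that were higher. Of the lower genes, Mfap1b, a splicing factor with a sister gene Mfap1a next to it, was at 4.87, 6.05 and 6.63 FPKM in C57-IR and at 2.21, 3.36 and 2.42 FPKM in Slit2-IR libraries (unadjusted p = 2.94e-04, adjusted p = 0.228). Capza1, the alpha subunit of the actin capping protein CapZ, was at 5.8, 5.99 and 8.47 FPKM and at 4.17, 5.09 and 2.23 FPKM (unadjusted p = 0.0106). Ifitm1, an interferon-induced membrane protein, was at 2.83, 3.1 and 6.18 FPKM and at 1.35, 2.01 and 2.17 FPKM (unadjusted p = 0.00885). Lrtm1, a leucine-rich repeat membrane protein, was at 43.5 to 47.0 and at 16.9 to 42.4 FPKM. The transcription factor Zkscan3, the mitochondrial tRNA mt-Th, G530011O06Rik, Gm12112, 0610040J01Rik and a locus without a gene name made up the rest.

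Interferon-inducible GTPases are the guanylate-binding proteins (Gbp) and immunity-related GTPases (Irgm, Igtp, Tgtp) that interferon-gamma induces and that act on the membranes around intracellular pathogens. All 14 tested had a negative log2 fold change (median -0.34, over all genes 0.00), and 5 were lower at an unadjusted p under 0.05 where 1.38% of all genes were. None passed the adjusted threshold, and 3 had groups that did not overlap, where 3.44% of all genes were lower without overlap. Sequences before their start sites are printed for the letters that interferon-activated factors are known to read, for the 3 of those 5 genes that have a RefSeq promoter sequence (GRCm38.p6, plus strand). Each line gives the 250 bases before the start site, with TTCNNNGAA, the gamma-activated site, and GAAANNGAA, the core of the interferon-stimulated response element, in capitals on either strand. The windows are chr11:58199306-58199555 for Igtp, chr11:58214727-58214976 for Irgm2 and chr3:142496684-142496933 for Gbp5.
Igtp: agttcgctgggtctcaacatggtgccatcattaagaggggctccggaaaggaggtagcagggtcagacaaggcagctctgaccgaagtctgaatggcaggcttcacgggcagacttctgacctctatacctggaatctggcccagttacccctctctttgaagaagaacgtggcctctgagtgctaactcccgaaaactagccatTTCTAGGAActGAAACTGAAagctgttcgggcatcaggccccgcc
Irgm2: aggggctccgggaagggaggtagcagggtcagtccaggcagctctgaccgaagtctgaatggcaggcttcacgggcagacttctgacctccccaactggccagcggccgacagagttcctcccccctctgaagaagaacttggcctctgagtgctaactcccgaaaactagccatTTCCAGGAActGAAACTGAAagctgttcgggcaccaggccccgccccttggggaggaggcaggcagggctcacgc
Gbp5: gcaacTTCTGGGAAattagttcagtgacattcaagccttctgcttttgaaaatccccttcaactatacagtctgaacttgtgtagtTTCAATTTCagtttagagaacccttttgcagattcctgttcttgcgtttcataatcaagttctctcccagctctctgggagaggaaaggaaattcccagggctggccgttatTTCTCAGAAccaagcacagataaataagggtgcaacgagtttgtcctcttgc

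In Igtp the letters TTCNNNGAA begin 45 bases and GAAANNGAA 34 bases before the start site, and in Irgm2 they begin 75 and 64 bases before it. The motifs do not overlap each other in these windows. Gbp5 holds TTCNNNGAA at 245 and 52 bases and the reverse of GAAANNGAA at 164 bases before its start. Of the 10 members of the list with a RefSeq window, 10 held GAAANNGAA and 6 held TTCNNNGAA, while of 32851 windows of the same length 7.13% held the first and 7.02% the second. A match is a description of the letters and not evidence of binding. Gbp4 and Gbp9 were the other GTPases lower at an unadjusted p under 0.05.

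Igtp was at 9.1, 17.7 and 5.59 FPKM in C57-IR and at 4.7, 6.27 and 6.1 FPKM in Slit2-IR libraries, which gives -0.69 on the log2 scale (limma unadjusted p = 0.0414). The groups overlapped, and the highest value was that of C57-IR replicate 2. Irgm2 was at 5.79, 12.2 and 5.33 FPKM and at 4.39, 4.41 and 4.51 FPKM (log2 fold change -0.61, unadjusted p = 0.0171), with all Slit2-IR libraries below all C57-IR libraries. Gbp9 was at 5.37, 6.26 and 5.19 FPKM and at 3.79, 4.06 and 4.74 FPKM, without overlap (log2 fold change -0.35, limma unadjusted p = 0.0188). Gbp5 was at 1.34, 2.14 and 2.03 FPKM and at 1.19, 1.16 and 1.33 FPKM, also without overlap (-0.34, limma unadjusted p = 0.0461). Gbp4 was at 2.45, 4.86 and 2.4 FPKM and at 1.19, 1.91 and 2.41 FPKM (-0.55, limma unadjusted p = 0.032). Igtp and Irgm2 overlap in the files' coordinates, as do Gbp4 and Gbp9, so that their reads can be shared. C57-IR replicate 2 was the highest of the 6 libraries for 13 of the 14 GTPases tested. Without it the median was -0.13, 12 of 14 were negative and 1 was at an unadjusted p under 0.05. That number was 7 without C57-IR replicate 1 (median -0.54), 1 without Slit2-IR replicate 1, 2 without Slit2-IR replicate 2 and 4 under the replicate block. Of all 15240 genes, 419, 144, 265 and 309 were lower in these fits, and 240 without C57-IR replicate 2. Without C57-IR replicate 2 and Slit2-IR replicate 1 together, 8 were negative and 6 positive. Without IR, 7 of the 14 were positive and the median was -0.05. In whole tissue, fewer cells of a type and less RNA per cell cannot be told apart.

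**Figure D4:**
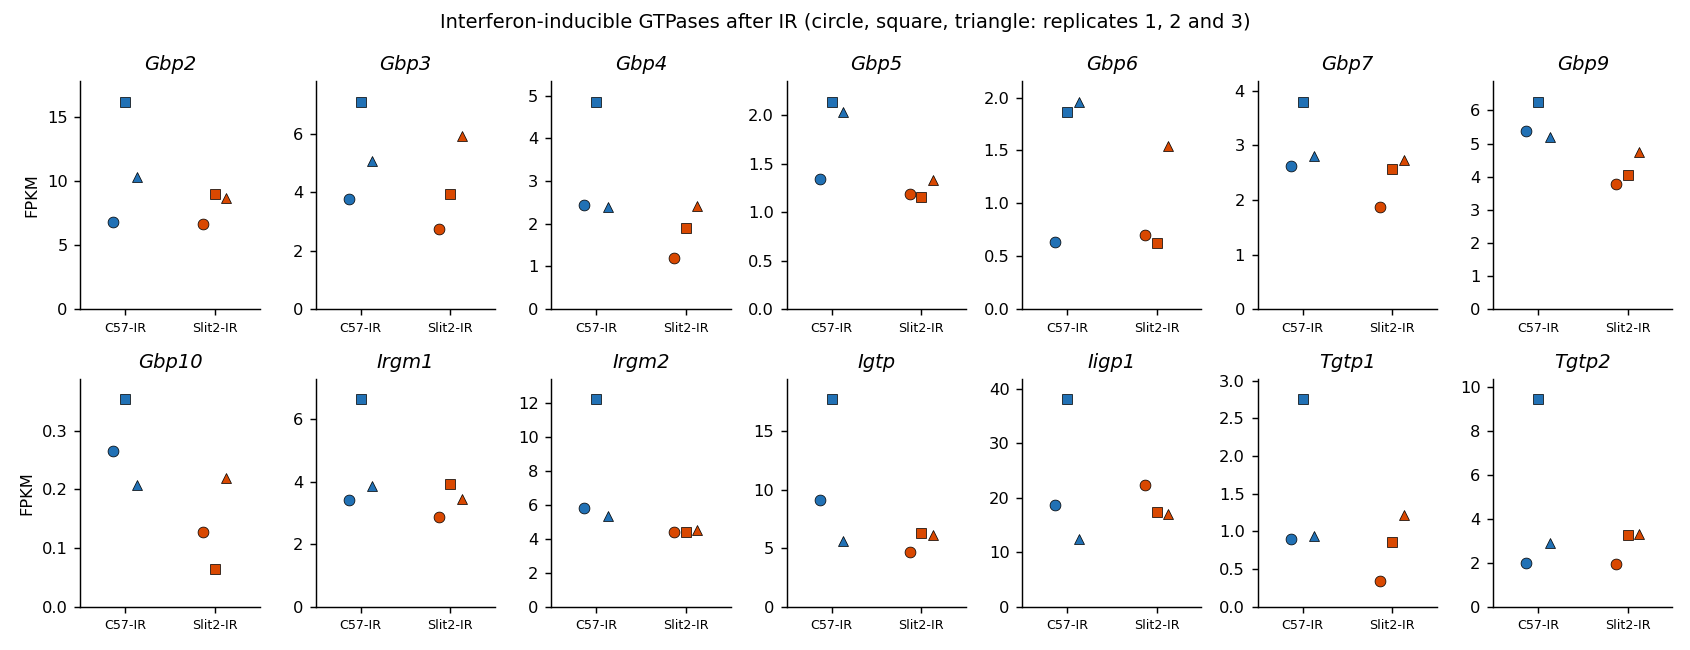
FPKM (linear axis from 0) of the 14 tested interferon-inducible GTPases in the C57-IR and Slit2-IR libraries. Circles, squares and triangles are replicates 1, 2 and 3. The square of C57-IR, replicate 2, is the highest point in 13 panels, such as Igtp at 17.7 FPKM.

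Of 31 genes of interferon signalling and interferon-induced genes, 19 had a negative and 12 a positive log2 fold change, with a median of -0.04. Without C57-IR replicate 2, 22 of the 31 were positive (median 0.06), and without C57-IR replicate 1, 26 were negative (median -0.18). Cd274, the checkpoint ligand PD-L1, was at 4.03, 7.25 and 3.32 FPKM in C57-IR and at 2.48, 3.17 and 3.54 FPKM in Slit2-IR libraries (limma unadjusted p = 0.0392). Mx2, an interferon-induced antiviral GTPase, went the other way, at 1.17, 1.18 and 0.85 FPKM against 1.51, 1.83 and 1.79 FPKM (unadjusted p = 0.00349, adjusted p = 1), and all Slit2-IR libraries were above all C57-IR libraries. Of 16 MHC class I and antigen-processing genes 15 had a negative log2 fold change (median -0.20), 1 of them, H2-Q7, at an unadjusted p under 0.05, where 1.38% of all genes were lower (3.25, 6.69 and 4.18 against 2.4, 2.65 and 3.42 FPKM, limma unadjusted p = 0.039). Without IR 16 of the 16 were negative as well, with a median of -0.13 and 0 at an unadjusted p under 0.05. B2m, the light chain of class I molecules, was at 224, 495 and 418 FPKM and at 232, 273 and 358 FPKM. Without C57-IR replicate 2, 9 of the 16 were positive and the median was 0.01. Without C57-IR replicate 1, 6 of the 16 were lower at an unadjusted p under 0.05, and so were 419 of all 15240 genes.

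Chemokines and cytokines draw in and activate leukocytes. Of 21 chemokines tested 19 had a negative log2 fold change (median -0.35). Ccl5 (0.417 to 1.27 against 0.103 to 0.692 FPKM, limma unadjusted p = 0.0482) and Cxcl13 (0.0996 to 0.542 against 0.039 to 0.144 FPKM, limma unadjusted p = 0.0424) were at an unadjusted p under 0.05, where 1.38% of all genes were lower. With the replicate number as a block 4 chemokines were, and 309 of all 15240 genes were lower there. Ccl2, the monocyte chemoattractant, was at 21.9, 105 and 39.6 FPKM in C57-IR and at 28.7, 37.0 and 32.5 FPKM in Slit2-IR libraries. The Slit2-IR values lay inside the range of the C57-IR values. Of 10 cytokines 9 were lower (median -0.23) and 0 were at an unadjusted p under 0.05 in limma, or 2 with the block. Tnf was at 6.89, 27.5 and 9.37 FPKM and at 8.99, 13.9 and 7.31 FPKM. Without C57-IR replicate 2 the medians were 0.06 for chemokines and 0.04 for cytokines, with 12 of 21 and 6 of 10 positive. With any 1 library left out, 0 to 4 chemokines and 0 to 3 cytokines were lower at an unadjusted p under 0.05, beside 144 to 419 of all 15240 genes. Of 5 SLAM family receptors 5 were lower and 0 were at an unadjusted p under 0.05 (2 with the block), and Slamf7 was at 0.413, 1.52 and 0.525 FPKM against 0.194, 0.581 and 0.245 FPKM (limma unadjusted p = 0.0537). NF-kB pathway and endothelial adhesion genes had a median of 0.01 over 25 genes. Without C57-IR replicate 2 the median was 0.27 with 19 positive and 2 higher at an unadjusted p under 0.05, beside 291 of all 15240 genes. Without C57-IR replicate 1 the median was -0.10 with 23 negative. Icam1, an adhesion receptor for leukocytes, was at 7.39 to 27.2 and 12.7 to 17.7 FPKM.

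Immediate-early genes, transcription factors and other genes of the early response to stress, had a median of 0.05 over 30 genes with 0 at an unadjusted p under 0.05. Their direction followed the library left out: the median was -0.17 without C57-IR replicate 1 and 0.41 without C57-IR replicate 2. Of 17 heat shock proteins 15 had a positive log2 fold change (median 0.15) and 0 were at an unadjusted p under 0.05 in limma. With the block 1 was, and 379 of all 15240 genes were higher there. The median was 0.04 with 11 of 17 positive without C57-IR replicate 1 and 0.32 without C57-IR replicate 2. Without Slit2-IR replicate 3, 4 of the 17 were higher at an unadjusted p under 0.05, and so were 383 of all 15240 genes. Hspa1a, the inducible HSP70, was at 293, 365 and 374 FPKM in C57-IR and at 744, 486 and 349 FPKM in Slit2-IR libraries. Slit2-IR replicate 1 was the highest and replicate 3 lay among the C57-IR libraries.

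Collagens and matrix genes are products of fibroblasts and vessel walls. Of 25 collagens 24 had a positive log2 fold change (median 0.25), 4 were higher at an unadjusted p under 0.05 against 1.78% of all genes, and 0 passed the adjusted threshold. Col5a1, which starts fibril assembly, was at 5.29, 7.0 and 7.42 FPKM in C57-IR and at 9.49, 7.53 and 10.3 FPKM in Slit2-IR libraries (limma unadjusted p = 0.019, groups apart). The basement membrane chain Col4a3 was at 0.402, 0.371 and 0.478 FPKM and at 0.554, 0.638 and 0.806 FPKM (unadjusted p = 0.0263, groups apart). Of the microfibrillar type VI chains, Col6a2 was at 8.18 to 12.6 and 11.7 to 19.0 FPKM and Col6a6 at 1.0 to 1.51 and 1.44 to 2.37 FPKM. Col1a1, the main fibrillar chain, was at 10.7, 20.9 and 21.5 FPKM and at 34.0, 18.9 and 33.3 FPKM with an unadjusted p of 0.0628. C57-IR replicate 1 was the lowest library for the median collagen, and without it 19 of 25 were positive, the median was 0.15 and 0 were at an unadjusted p under 0.05. That number was 10 without Slit2-IR replicate 2, 7 without C57-IR replicate 3, 2 without Slit2-IR replicate 1 and 1 without Slit2-IR replicate 3. Of all 15240 genes, 530, 217, 171 and 383 were higher in these fits, and 332 without C57-IR replicate 1. Fibroblast markers were at 163, 285 and 285 FPKM in C57-IR and at 249.9 to 277 FPKM in Slit2-IR libraries, and their part in the collagen values was not tested. Of 32 other matrix genes 30 were positive (median 0.22) and 3 were higher at an unadjusted p under 0.05, against 1.78% of all genes. These were Sfrp2, a secreted Wnt modulator (0.479, 1.13 and 1.18 against 2.88, 1.66 and 1.58 FPKM, limma unadjusted p = 0.0211), Loxl2, a collagen cross-linking oxidase (2.23 to 3.19 against 2.54 to 5.3 FPKM), and Pdgfrl (0.733 to 1.28 against 1.25 to 2.1 FPKM). With the block 5 of the 32 were higher, and so were 379 of all 15240 genes. Without C57-IR replicate 1, 22 of the 32 were positive, the median was 0.04 and 0 were at an unadjusted p under 0.05. Without Slit2-IR replicate 1 or 3, 0 and 1 were higher at that threshold. The number was 3 without C57-IR replicate 2 or 3 and 4 without Slit2-IR replicate 2. Of all 15240 genes, 291, 217 and 530 were higher without C57-IR replicate 2, C57-IR replicate 3 and Slit2-IR replicate 2. Without IR the medians were -0.01 for collagens and 0.06 for the other matrix genes.

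Among genes of cardiac excitation and contraction 0 passed the adjusted threshold. Of 28 channels and connexins 23 were positive (median 0.16) and 4 were higher at an unadjusted p under 0.05, where 1.78% of all genes were. Without IR the same list had 22 of 28 positive, a median of 0.14 and 2 higher at that threshold, beside 216 of all 15240 genes. Kcna1 was at 0.204, 0.562 and 0.335 FPKM in C57-IR and at 1.05, 0.713 and 0.629 FPKM in Slit2-IR libraries (limma unadjusted p = 0.00878). Kcna7 was at 2.81, 3.04 and 2.75 FPKM and at 4.72, 3.71 and 3.89 FPKM (limma unadjusted p = 0.0123), and both had groups apart. Kcne1, the beta subunit of the slow delayed rectifier, was at 0.627 to 1.02 and 0.923 to 2.37 FPKM. Without Slit2-IR replicate 1, the library with atrial markers, 21 of the 28 were positive, the median was 0.10 and 2 were at an unadjusted p under 0.05. With each library left out in turn 2 to 8 were higher, beside 171 to 530 of all 15240 genes. Of 20 calcium-handling genes Camk2a was higher (4.93 to 7.35 against 6.7 to 11.6 FPKM, limma unadjusted p = 0.0266), where 1.78% of all genes were, with a list median of 0.08. At an unadjusted p under 0.05, 0 of the 20 were higher without Slit2-IR replicate 1, C57-IR replicate 2 or C57-IR replicate 3. Without C57-IR replicate 1, 3 were higher, and 2 were without Slit2-IR replicate 2 or 3. Of all 15240 genes, 332, 530 and 383 were higher in these fits. Of 29 sarcomere and Z-disc genes, Obsl1, a giant cytoskeletal adaptor, was higher in every Slit2-IR library, the highest at 25.7 FPKM in replicate 1, against 11.9, 10.6 and 8.54 FPKM in C57-IR libraries (limma unadjusted p = 0.0249), and Capza1 and Tnni3k were lower. Of all genes tested, 1.78% were higher and 1.38% lower at an unadjusted p under 0.05. Tnni3k, a cardiac kinase that binds troponin I, was at 41.0, 29.1 and 27.8 FPKM in C57-IR and at 17.6, 19.8 and 28.6 FPKM in Slit2-IR libraries (unadjusted p = 0.0091). The sarcomere median was 0.08 and turned to -0.08 without Slit2-IR replicate 1 and to -0.06 without C57-IR replicate 3. Kinases of the PKC and PKA families and phosphatases had a median of 0.04 over 20 genes with 0 at an unadjusted p under 0.05.

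Stretch-responsive and fetal genes were positive for 9 of 10 (median 0.22). The median was 0.05 without Slit2-IR replicate 1 and 0.46 without Slit2-IR replicate 3, and without IR it was 0.19 with 8 of 10 positive. Ankrd2, a titin-associated ankyrin repeat protein, was at 0.208, 0.323 and 0.445 FPKM in C57-IR and at 1.07, 0.68 and 0.653 FPKM in Slit2-IR libraries (limma unadjusted p = 0.004, groups apart), on 22 and 58 reads. Nppb, the natriuretic peptide BNP, was at 320.3, 653 and 614 FPKM and at 704, 280.2 and 963 FPKM. The Slit2-IR libraries held both its highest and its lowest level.

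Among 27 genes of fatty acid oxidation, Ppargc1a, the coactivator PGC-1alpha of mitochondrial biogenesis, was at 12.9, 15.9 and 14.0 FPKM in C57-IR and at 9.17, 8.74 and 7.86 FPKM in Slit2-IR libraries. All Slit2-IR libraries were below all C57-IR libraries, at a ratio of means of 0.601, or -0.67 ± 0.19 on the log2 scale (SE, limma unadjusted p = 0.00425, adjusted p = 1). Without IR it was at 8.94 to 15.2 and 9.68 to 15.4 FPKM, and the interaction was -0.77 (limma unadjusted p = 0.0144, adjusted p = 1). Acaca, the acetyl-CoA carboxylase that makes malonyl-CoA, was lower at 0.522 to 0.541 against 0.698 to 0.797 FPKM (unadjusted p = 0.0143). Ucp3, a mitochondrial carrier of muscle, was higher at 26.8, 21.3 and 9.27 against 7.57, 13.1 and 9.88 FPKM (unadjusted p = 0.0486), with replicate 3 among the C57-IR libraries. With the replicate number as a block it was no longer at an unadjusted p under 0.05, and 0 genes of the list were higher there. In the main fit 1 gene of the list was higher and 2 were lower at an unadjusted p under 0.05, where 1.78% and 1.38% of all genes were. The list median was -0.04. Of the 13 messenger RNAs of the mitochondrial genome, which encode subunits of the respiratory chain, 12 were negative (median -0.34) and 0 were at an unadjusted p under 0.05 in limma. With the block 2 were, and 309 of all 15240 genes were lower there. Without IR 12 of the 13 were negative too, with a median of -0.18. mt-Co1, a subunit of cytochrome c oxidase, was at 71077, 72016 and 71212 FPKM in C57-IR and at 49607, 64248 and 55106 FPKM in Slit2-IR libraries, without overlap. Mitochondrial genes took 25.4% to 26.0% of the reads in C57-IR and 19.7% to 23.8% in Slit2-IR libraries, and at least 23.9% in C57-non-IR and at most 23.3% in Slit2-non-IR libraries.

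**Figure D5:**
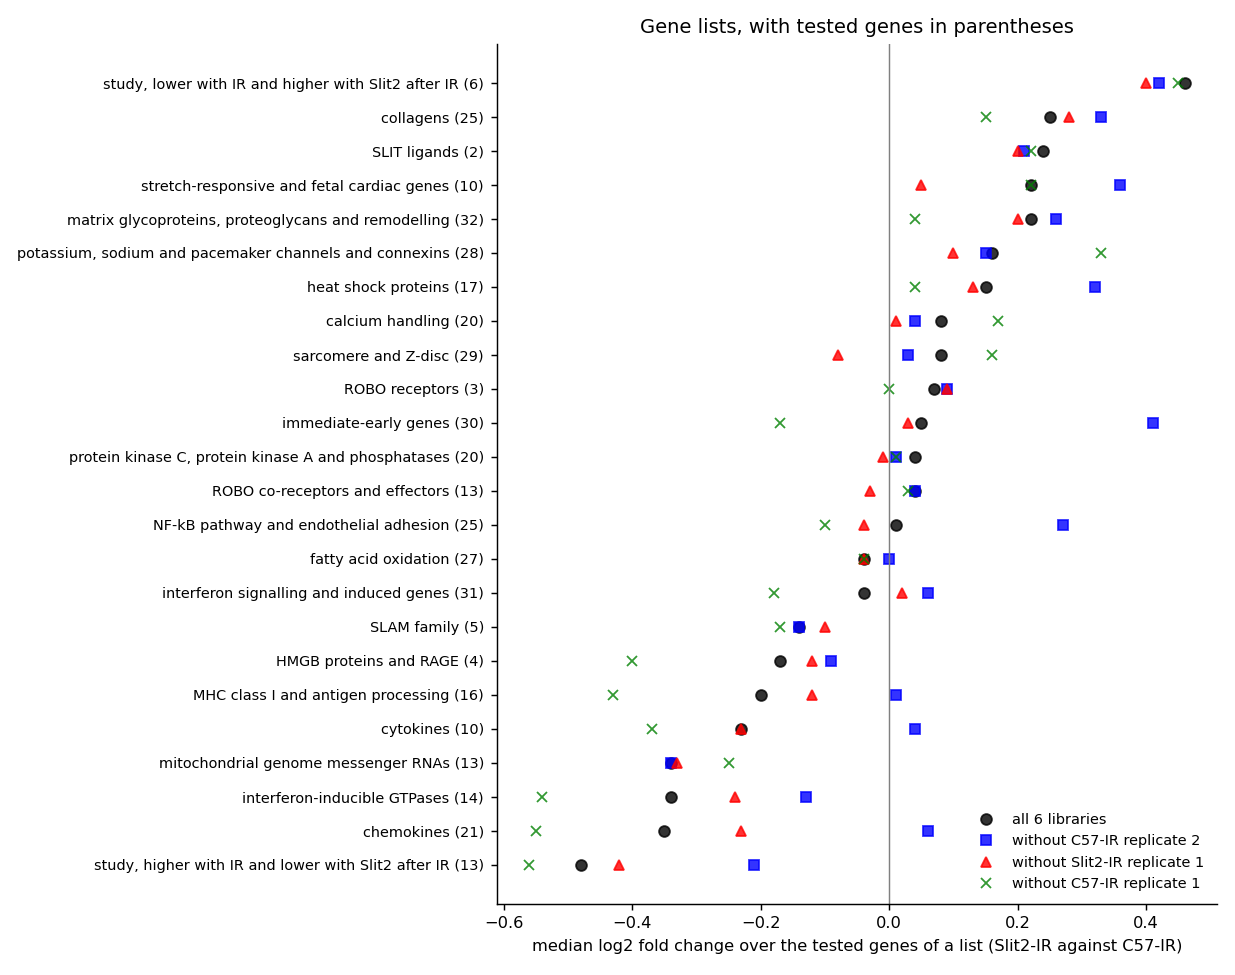
Median log2 fold change of Slit2-IR against C57-IR hearts over the tested genes of each of 24 gene lists, with all 6 libraries (black) and without C57-IR replicate 2 (blue), Slit2-IR replicate 1 (red) or C57-IR replicate 1 (green). The chemokine median moves from -0.35 to 0.06 without C57-IR replicate 2, and the collagen median from 0.25 to 0.15 without C57-IR replicate 1.

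The study names genes for this comparison, and it chose them on these libraries, so that their directions here are no independent evidence. It also measured Slamf7 and RasGRP1 by RT-qPCR and Western blot. It reported that IR raised Slamf7 and that Slit2 overexpression blunted the rise, also in immunofluorescence. RasGRP1 did not differ between its groups. Of its genes raised by IR and lower with Slit2, 13 identifiers were tested, 13 were lower and 6 were at an unadjusted p under 0.05 in limma, where 1.38% of all genes were lower. P2ry10, a lysophospholipid receptor of lymphoid cells, was at 0.173, 0.289 and 0.194 FPKM in C57-IR and at 0.0991, 0.0696 and 0.0752 FPKM in Slit2-IR libraries, on 39 and 16 reads (unadjusted p = 0.00821). Without C57-IR replicate 2, 1 of the 13 was at an unadjusted p under 0.05, and 2 to 7 were with another library left out. Of all 15240 genes, 240 were lower without C57-IR replicate 2 and 144 to 419 with another library left out. Of its 6 genes lowered by IR and higher with Slit2, 6 were higher and 5 were at an unadjusted p under 0.05, where 1.78% of all genes were higher. With any 1 library left out 2 to 3 of the 6 were, beside 171 to 530 of all 15240 genes. Trim7, a RING-type ubiquitin ligase that binds glycogenin, was at 2.46, 2.68 and 2.91 FPKM in C57-IR and at 4.74, 4.27 and 3.89 FPKM in Slit2-IR libraries (unadjusted p = 0.00384, adjusted p = 1, groups apart). Disc1 was at 0.316, 0.346 and 0.468 FPKM and at 0.622, 0.622 and 0.625 FPKM, and Irx2, a homeobox factor, at 1.1, 0.973 and 0.569 FPKM and at 1.91, 1.28 and 2.39 FPKM, each with groups apart. The interaction of Trim7 was 0.65 (limma unadjusted p = 0.00874, adjusted p = 1).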

How the data were processed

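RNA from perfused mouse hearts was sequenced in 12 libraries, 3 per group, which the labels give as independent samples. The authors deposited FPKM values per gene, and HISAT2 and mm10 are named in the submitters' processing notes. Whether counting used strand is not given in the sources used here. Value times gene length was a whole multiple of 1 read in 100% of values (tolerance 0.05 reads), which gave the reads behind each value.

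Values were tested as log2(FPKM + 1) with limma 3.58.1 (R 4.3.3, with a mean-variance trend), with all 4 groups in 1 fit, Benjamini-Hochberg adjustment over all genes and two-sided p-values. Genes entered the tests where 3 or more libraries reached 10 reads, scaled to median depth, and the 12 libraries together held 15 or more, which left 15240 of 52858 genes. The study used an unadjusted threshold, so unadjusted values are given as well. On simulated libraries with 200 genes changed 4-fold in Slit2-IR against C57-IR, over 15240 genes, 191 (95.5%) were recovered with 12 false calls. The simulated hearts varied independently under 1 rule for the spread. They held no library that stood apart and no deviations shared by same-numbered hearts. The 95.5% is therefore not the share of such changes that could be found in these hearts. The members and gene lists were chosen with earlier results of these data known.

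Named genes were those past the adjusted threshold, the 12 largest differences each way among genes at an unadjusted p under 0.05 with groups apart and at least 1 FPKM in the higher group, the members of the lists, and genes the study names. Same-numbered hearts deviated together after IR (correlations across genes of 0.285, 0.154 and 0.362), and not in every pair without IR (0.324, 0.038 and 0.105). Hearts of different numbers had correlations of -0.3 to -0.021 after IR and of -0.283 to 0.305 without IR. Without IR the replicate number therefore did not set same-numbered pairs apart. Alternatives were a pseudocount of 0.1, filters on reads, the replicate block, TMM scaling, only the compared libraries and each library left out. A voom fit on the recovered reads, and leaving out C57-IR replicate 2 and Slit2-IR replicate 1 together, were chosen after seeing the data. Promoter windows came from RefSeq tables of GRCm38.p6. Some listed genes are counted in their lists, and their own values are not reported here.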

Additional observations from a re-analysis of the deposited data

Results flagged for a closer look

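For 4 of the 7 genes past the adjusted threshold the genotype difference itself differed between hearts with and without IR at an unadjusted p of the limma interaction under 0.05. The values were 8.10e-04 for Slc7a1, 0.00274 for Hmgb1, 0.0149 for AC154767.3 and 0.0338 for Vwc2, and each had an adjusted p of 1. The difference was larger after IR for Slc7a1, Hmgb1 and AC154767.3 and smaller for Vwc2. The 7 genes were chosen by the difference after IR, which is itself a part of the interaction. These values are therefore no independent evidence that the difference depends on IR. Of all 15240 genes tested, 284 had an unadjusted p of the limma interaction under 0.05, and 0 passed the adjusted threshold. The cause of these 4 differences was not tested.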

How the results depend on the processing

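The number of genes past the adjusted threshold in Slit2-IR against C57-IR hearts was 7. It was 3 with at least 10 reads in every library, 4 with only the 6 libraries compared, and 4 to 12 with 1 library left out (4 without C57-IR replicate 1, C57-IR replicate 3 or Slit2-IR replicate 1, and 12 without Slit2-IR replicate 2). The number at an unadjusted p under 0.05 was 482. It was 928 with no filter beyond 1 read, which tests 28242 genes, and 315 (without Slit2-IR replicate 1) to 795 (without Slit2-IR replicate 2) with 1 library left out, 751 of them without C57-IR replicate 1. With the replicate number as a block, which pairs same-numbered hearts, 9 and 688 genes passed. The block added A930035D04Rik and Rab4a to the 7 genes and changed no other call among them. Without IR the number past the adjusted threshold was 6, against 10 with a pseudocount of 0.1, 11 with no filter, 3 with at least 10 reads in every library, 2 with the replicate block and 1 to 7 with 1 library left out (1 without any of the C57-non-IR libraries). The interaction passed for 0 genes (0 also with limma-voom), for 4 with no filter and for 0 to 1 with 1 library left out (1 without Slit2-non-IR replicate 1 or Slit2-IR replicate 3). The cause of these shifts was not tested beyond the number of genes or libraries that a setting removes or adds. Of 904 alternative values for 71 genes followed singly, 878 kept their direction and their side of the threshold, 22 no longer passed, 3 newly passed and 1 reversed. Only the 7 genes past the threshold could lose it, so that all 22 losses were theirs. Vwc2 kept it in 4 of 12 values and Gm3650 in 5 of 12. Most of the other genes followed were far from the threshold, so that the 878 do not measure how stable the 7 calls were. The reversed value was that of Srp54a (ENSMUSG00000073079), at 0.00 without C57-IR replicate 2, with -0.19 to 0.00 over the libraries left out. Levels under 1 FPKM rest on few reads, and intervals for counting error were not computed.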
